A study of Mus musculus with 9 samples.

Results

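Slc25 genes encode the mitochondrial carriers, and 46 of the 19505 genes on Clariom S mouse arrays belonged to this family. The family was picked with earlier results of these data known. Its members were chosen by gene symbol alone (Slc25a followed by a number in the platform annotation), without use of any measured value, and each of the 46 had 1 probe set. Their signals were followed in brain RNA of male mice in 3 groups of 3 arrays. Wild-type mice (C57BL/6JHamSlc-+/+) received vehicle. Leptin-deficient ob/ob mice (C57BL/6JHamSlc-ob/ob) received either vehicle or VE, an extract of Vigna umbellata, at 100 mg/kg of body weight by oral gavage. Dosing lasted 42 days in every group, on standard chow. The mice were 6 weeks old on arrival and were acclimatized for 1 week before dosing. The ob mutation is inherited, so functional leptin was absent from every tissue and at every age in both ob/ob groups, and no group combined wild-type mice with VE. The labels name the tissue as brain without a region. The series' design text instead speaks of white adipose tissue and adds a lower dose. That conflicts with the labels of all 9 arrays used, and the labels were followed. Nothing in the labels states whether the 3 arrays of a group came from separate animals, so p-values measure the spread between these samples.

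Mitochondrial carriers sit in the inner mitochondrial membrane, which small charged molecules cannot cross unaided, and each carrier exchanges or imports particular substrates. Through them ADP and phosphate enter and ATP leaves, reducing equivalents of cytosolic NADH are passed on by the malate-aspartate shuttle, and citrate is delivered for lipid synthesis. In brain, the family also handles glutamate, with partly separate forms in neurons and in astrocytes, and includes relatives of the uncoupling proteins that are expressed in nervous tissue. A few members lie elsewhere, such as Slc25a17 in peroxisomes and Slc25a46 in the outer mitochondrial membrane.

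All values are log2 signals, and a difference of 1 is a change by a factor of 2. Each comparison was tested with limma over all 22206 probe sets, and a gene was called at a Benjamini-Hochberg adjusted p under 0.05. All 9 neuron markers, 8 astrocyte markers and 7 measured oligodendrocyte markers were above the median signal of the arrays (7.13), and all 7 adipocyte markers (Adipoq, Plin1, Cidec, Fabp4, Lipe, Retn, Ucp1) were below it. Of the family, 25 members had a mean signal at or above that median and 21 were below it. VE array 2 stood apart from the other 8 arrays, with a correlation to them of 0.962 to 0.970 against 0.979 to 0.993 among them. It was the lowest VE array for 32 of the 46 carriers, against 55.1% of all probe sets. The median SD of the carriers within a group was 0.191 in wild type, 0.205 in ob/ob vehicle and 0.326 in VE. The label of this array describes its value column as log2 where the other 8 say averaged log2. Whether it was processed differently is not stated, and the VE differences that lean on it most are given both with and without it.

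In ob/ob brain, 2 carriers fell against wild type: Slc25a18, a mitochondrial glutamate carrier best known from astrocytes, and Slc25a23, a calcium-regulated carrier that exchanges ATP-Mg for phosphate. Both differences exceeded a factor of 2. VE-treated ob/ob mice had Slc25a18 signals near those of wild type, while Slc25a23 stayed low and also passed the test against wild type. No carrier passed the test between VE and ob/ob vehicle. The 2 carriers called in ob/ob stand beside 1.27% of all probe sets called there (0.73% called lower). The 1 carrier called in VE against wild type stands beside 0.0991% of all probe sets, all of them lower. The 0 carriers called in VE against ob/ob vehicle stand beside 0.486% of all probe sets (0.473% lower). Without VE array 2, which enters the shared estimate of the spread, 7 carriers were called in ob/ob (13.4% of all probe sets), the 2 above with Slc25a1, Slc25a11, Slc25a39 and Slc25a51 lower and Slc25a31 higher. In the same fit 2 carriers were called in VE against ob/ob vehicle (Slc25a1 and Slc25a18, both higher), beside 1.81% of all probe sets. In VE against wild type that fit called 1, beside 0.329%. Leaving out any 1 wild-type or ob/ob vehicle array left 0 carriers called in ob/ob, and at most 0.0946% of all probe sets, so the loss was not particular to the carriers. At an unadjusted limma p under 0.05, 10 carriers passed in ob/ob against wild type (20.1% of all probe sets), 4 in VE against ob/ob vehicle (13.3%) and 9 in VE against wild type (12.2%). These shares of the family, 21.7%, 8.7% and 19.6%, pool both directions. They are near the background in the first comparison, below it in the second and above it in the last. By direction, 2 were higher and 8 lower in ob/ob, against 2193 and 2264 of all probe sets. All 8 were among the 25 carriers at or above the median signal, where 17.6% of probe sets were lower. In VE against ob/ob vehicle 3 were higher and 1 lower (712 and 2250 of all probe sets). In VE against wild type 2 were higher and 7 lower (661 and 2046). No test of the family as a list was made.

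**Figure D1:**
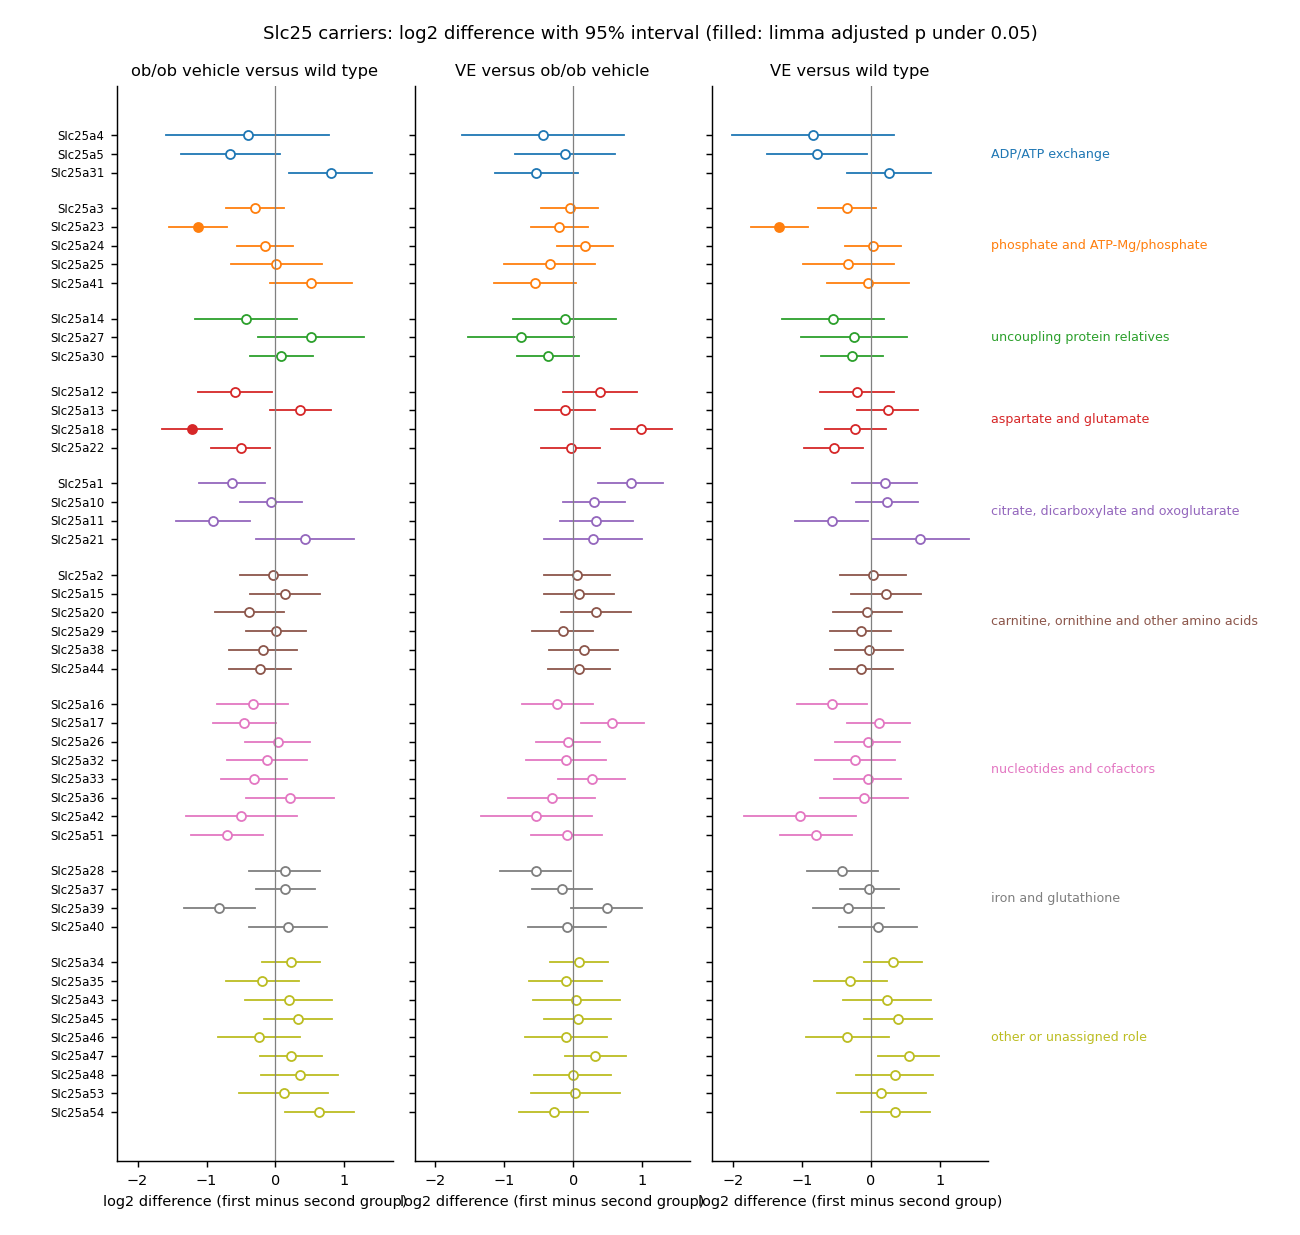
Log2 difference of each of the 46 carriers (rows, grouped by role) with its 95% interval in the 3 comparisons, filled where the limma adjusted p was under 0.05. The only filled points are Slc25a18 (-1.21) and Slc25a23 (-1.12) in ob/ob against wild type and Slc25a23 (-1.33) in VE against wild type.

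Among the carriers of aspartate and glutamate, Slc25a18 (probe set TC0600001354.mm.2) was 9.71, 9.34 and 9.21 in wild type, 8.31, 8.21 and 8.10 in ob/ob vehicle and 9.36, 9.18 and 9.05 in VE. The 3 ob/ob vehicle arrays lay below all 6 others, and the wild-type and VE arrays overlapped. The gene fell by 1.21 in ob/ob against wild type (SE 0.204, 95% interval -1.65 to -0.77, 2.32-fold, limma adjusted p 0.0284). Between VE and ob/ob vehicle the difference was 0.99 (SE 0.204, interval 0.55 to 1.43, 1.99-fold), higher in 3 of 3 VE arrays, with a limma adjusted p of 0.054 that missed the threshold. Other settings gave an adjusted p between 0.0167 and 0.243, and 8 of 18 made the call, among them all 3 rescalings of the arrays (0.0191, 0.0438 and 0.0167 after quantile, median and cyclic loess scaling) and the fit without VE array 2 (0.0272). With the replicate number as a block it was 0.0473. Between VE and wild type it was -0.22 (interval -0.66 to 0.22, limma adjusted p 0.67). The call in ob/ob was lost on leaving out any 1 of the 6 wild-type and ob/ob vehicle arrays, with adjusted p from 0.0561 to 0.177 and the difference still at -1.32 to -1.07. The 2 differences share the ob/ob vehicle arrays and are not independent.

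**Figure D2:**
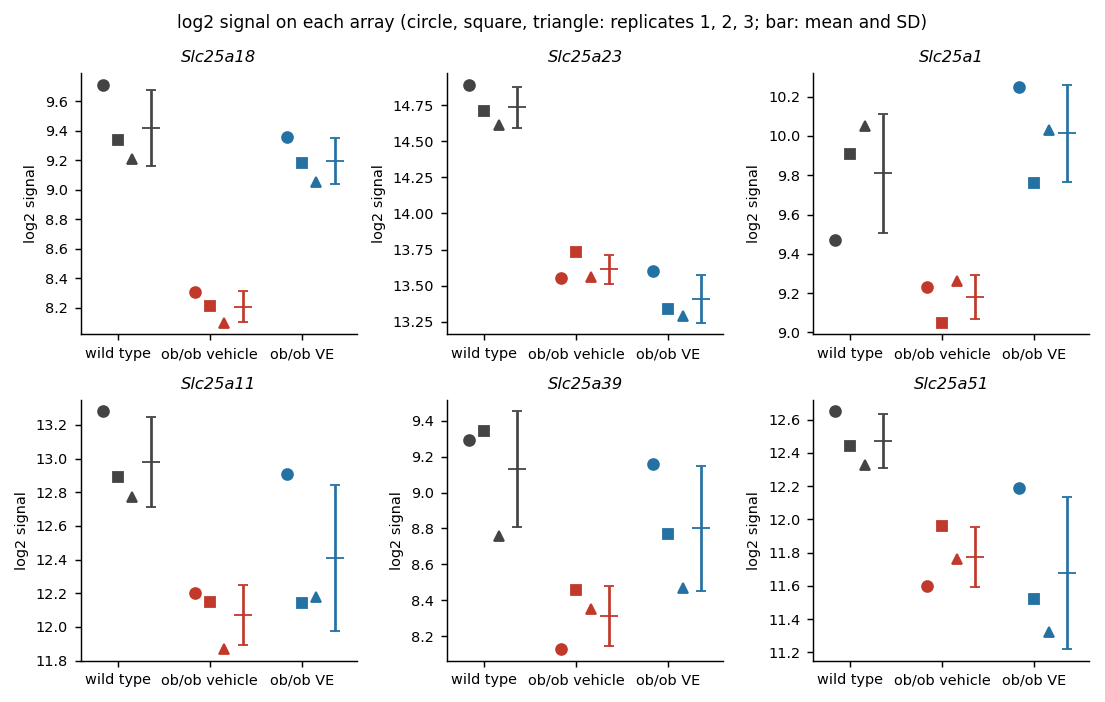
Log2 signal of 6 carriers on each of the 9 arrays (circle, square and triangle for replicates 1, 2 and 3; bar for the mean and SD of 3 arrays). Slc25a18 lay at 8.10 to 8.31 on the ob/ob vehicle arrays and at 9.05 or above on all others, while Slc25a23 lay at 13.73 or below in both ob/ob groups and at 14.61 or above in wild type.

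Slc25a22 encodes the other mitochondrial glutamate carrier, found widely in neurons. It was 11.06, 11.25 and 11.45 in wild type, 10.83, 10.77 and 10.64 in ob/ob vehicle and 10.79, 10.50 and 10.85 in VE. Both ob/ob groups lay below every wild-type array, but neither difference passed (-0.51, limma adjusted p 0.181, and -0.54, limma adjusted p 0.304). Between VE and ob/ob vehicle it was -0.03 (interval -0.46 to 0.40, limma adjusted p 0.964), an interval that excludes a rise of the size fitted for Slc25a18. Set against Slc25a22 on the same array, the log2 signal of Slc25a18 was 0.71 lower in ob/ob than in wild type (a change of -0.71, SE 0.26) and 1.02 higher in VE than in ob/ob vehicle (SE 0.146). The exact two-sided permutation p was 0.1 for both, the smallest that 3 arrays against 3 can give, and 0.375 after adjustment over the 15 ratios compared. The ratio in VE differed from wild type by 0.32 (exact permutation p 0.3).

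Slc25a12 and Slc25a13 encode the 2 calcium-regulated aspartate-glutamate carriers of the malate-aspartate shuttle, of which Slc25a12 is the main form in neurons and Slc25a13 is best known from liver. Slc25a12 was 13.46, 12.85 and 12.91 in wild type, 12.42, 12.45 and 12.58 in ob/ob vehicle and 13.30, 12.46 and 12.86 in VE. It was lower on all 3 ob/ob vehicle arrays than on any wild-type array without passing the test (-0.59, SE 0.248, limma adjusted p 0.208), and the VE arrays overlapped both other groups. Slc25a13 was 5.81, 5.69 and 5.46 in wild type, 6.05, 6.19 and 5.80 in ob/ob vehicle and 6.09, 5.83 and 5.77 in VE. Its groups overlapped (0.36 in ob/ob, limma adjusted p 0.338), and it was a dim probe set, under the median signal of the arrays. The log2 ratio of Slc25a12 to Slc25a13 was 0.95 lower in ob/ob (a change of -0.95, SE 0.213, exact permutation p 0.1, 0.375 adjusted).

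The carriers of phosphate and ATP-Mg hold the second called gene. Slc25a23 (probe set TC1700002346.mm.2) was 14.89, 14.71 and 14.61 in wild type, 13.55, 13.73 and 13.56 in ob/ob vehicle and 13.60, 13.34 and 13.29 in VE. All 6 ob/ob arrays, with or without VE, lay below all 3 wild-type arrays, and the ob/ob groups overlapped each other. The gene fell by 1.12 in ob/ob (SE 0.192, interval -1.54 to -0.71, 2.18-fold, limma adjusted p 0.0285) and by 1.33 in VE against wild type (SE 0.192, interval -1.74 to -0.91, 2.51-fold, limma adjusted p 0.0429). Both comparisons use the same wild-type arrays. Between VE and ob/ob vehicle the difference was -0.20 (interval -0.62 to 0.21, limma adjusted p 0.70). Slc25a18 was called in ob/ob after all 3 scalings (adjusted p 0.0137, 0.0149 and 0.0102), and Slc25a23 after centring alone (0.0155). The difference of Slc25a23 in ob/ob was -0.74 after quantile normalization (adjusted p 0.164) and -0.77 after cyclic loess (adjusted p 0.135). Quantile normalization without VE array 2, a setting chosen after the data were seen, gave -0.76 and kept the call (limma adjusted p 0.0217). It called 8.87% of all probe sets. In VE against wild type it gave -1.17 (limma adjusted p 0.0539). Quantile normalization and cyclic loess of all arrays gave -0.79 and -0.79 there (adjusted p 0.364 and 0.316), and 13 of 18 alternatives lost the call in VE against wild type. In 10 of those 13, which did not rescale the arrays, the difference was -1.39 to -1.25. The replicate number as a block was one of them (adjusted p 0.0643). In ob/ob the call was also lost without any 1 of the 6 wild-type and ob/ob vehicle arrays (adjusted p 0.0682 to 0.177), with the difference at -1.19 to -1.05.

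The other carriers of ATP-Mg did not follow it. Slc25a24 differed by -0.15, Slc25a25 by 0.01 and Slc25a41 by 0.52 between ob/ob and wild type, none of them called (limma adjusted p 0.312 for Slc25a41). Slc25a41 is the next protein-coding gene to Slc25a23 on its chromosome in RefSeq. Slc25a3, the phosphate carrier that supplies ATP synthase, was 14.83, 14.66 and 14.80 in wild type, 14.50, 14.42 and 14.48 in ob/ob vehicle and 14.60, 14.17 and 14.48 in VE. All 6 ob/ob arrays lay below wild type by a small margin (-0.30, interval -0.71 to 0.12, limma adjusted p 0.407 for ob/ob vehicle, and -0.35, limma adjusted p 0.486 for VE, or -0.22 without VE array 2). The sign was not stable: over the alternatives the difference ran from -0.37 to 0.07 in ob/ob and from -0.44 to 0.34 in VE against wild type.

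The promoters of 3 carriers are shown, since these are the members whose RNA levels the results turn on: the called Slc25a18 and Slc25a23, and Slc25a1, which had the second largest difference after Slc25a18 between VE and ob/ob vehicle. The windows are RefSeq's on GRCm38.p6, from 250 bases before to 50 bases after the annotated start, read 5′ to 3′ along the gene's strand. They lie at chr6:120773518-120773817 (plus strand) for Slc25a18, chr17:57059793-57060092 (minus strand) for Slc25a23 and chr16:17928170-17928469 (minus strand) for Slc25a1. Capitals mark matches on either strand to 4 motifs. They are TCACNCCAC, a form of the sterol response element bound by SREBP, the TATA box written as TATAAA, the box bound by NF-Y written as CCAAT, and the GC box bound by Sp1 written as GGGCGG.
Slc25a18: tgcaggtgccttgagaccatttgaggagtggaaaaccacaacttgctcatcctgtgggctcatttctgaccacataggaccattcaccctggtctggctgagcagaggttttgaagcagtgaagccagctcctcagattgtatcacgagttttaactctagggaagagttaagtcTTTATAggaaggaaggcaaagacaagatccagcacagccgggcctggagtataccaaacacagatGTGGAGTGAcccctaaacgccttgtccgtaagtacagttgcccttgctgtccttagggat
Slc25a23: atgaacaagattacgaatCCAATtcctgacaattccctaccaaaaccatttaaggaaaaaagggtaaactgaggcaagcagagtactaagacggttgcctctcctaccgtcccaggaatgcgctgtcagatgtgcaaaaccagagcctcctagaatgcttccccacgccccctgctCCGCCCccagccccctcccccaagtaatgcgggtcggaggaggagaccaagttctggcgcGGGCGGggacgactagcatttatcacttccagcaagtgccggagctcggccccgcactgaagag
Slc25a1: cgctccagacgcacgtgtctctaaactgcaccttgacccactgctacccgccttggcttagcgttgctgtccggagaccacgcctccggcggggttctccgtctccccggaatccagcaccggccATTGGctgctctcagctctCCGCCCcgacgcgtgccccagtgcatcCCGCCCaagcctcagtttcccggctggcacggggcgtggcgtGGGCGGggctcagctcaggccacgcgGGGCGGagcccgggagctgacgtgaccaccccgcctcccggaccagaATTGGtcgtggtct
The Slc25a18 window holds TATAAA at base 176 and TCACNCCAC at base 241, both on the opposite strand, and neither a CCAAT box nor a GC box. The Slc25a23 window holds 1 CCAAT box and 2 GC boxes, and the Slc25a1 window 2 CCAAT boxes and 4 GC boxes. A second annotated window of Slc25a23, chr17:57059814-57060113, overlaps the one shown and also holds 1 CCAAT box and 2 GC boxes.

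A promoter window was matched for 36 of the 46 carriers. GGGCGG was found in those of 30 (83.3%), against 38.2% of the 27025 genes with a window, and CCAAT in those of 19 (52.8%, against 41.1%). TATAAA was found in 2 carriers (Slc25a18 and Slc25a21, 5.56%, against 15.7% of genes), and TCACNCCAC in Slc25a18 alone (1 of 36, against 1.44%). TGACGTCA, the cAMP response element, was found in Slc25a25 and Slc25a36 (2.03% of genes), GCATGCGC, the core of the NRF1 site, in Slc25a31 and Slc25a54 (3.05%), and TCAAGGTCA, an ESRRA site, in 0 carriers (0.466%). Within the family the Slc25a18 window is unlike most others in its letters, with a match to TATAAA on the opposite strand and none to GGGCGG. These are letter matches in a fixed window, not measured binding.

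Slc25a1 exports citrate from mitochondria for lipid synthesis in the cytosol. It was 9.47, 9.91 and 10.05 in wild type, 9.23, 9.05 and 9.26 in ob/ob vehicle and 10.25, 9.76 and 10.03 in VE. The ob/ob vehicle arrays were below all others, as for Slc25a18. Neither difference passed: -0.63 in ob/ob against wild type (SE 0.219, limma adjusted p 0.142) and 0.83 in VE against ob/ob vehicle (SE 0.219, interval 0.36 to 1.31, 1.78-fold, limma adjusted p 0.104, and 0.0342 to 0.306 under other settings). The latter was called after quantile normalization (0.0394), after cyclic loess (0.0457) and without VE array 2 (0.0342).

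Slc25a11 exchanges oxoglutarate for malate and completes the malate-aspartate shuttle. It was 13.28, 12.89 and 12.77 in wild type, 12.20, 12.15 and 11.87 in ob/ob vehicle and 12.91, 12.14 and 12.18 in VE. The ob/ob vehicle arrays lay below wild type (-0.91, SE 0.247, limma adjusted p 0.0807, not called), and VE array 1 alone reached the wild-type range. The remaining carriers of dicarboxylates and oxodicarboxylates, Slc25a10 and Slc25a21, were dim probe sets, and none of the 4 in this role was called in any comparison. All 4 had higher means in VE than in ob/ob vehicle, by 0.29 to 0.83.

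Slc25a39 and Slc25a40 encode related carriers needed for glutathione in mitochondria. Slc25a39 was 9.29, 9.34 and 8.76 in wild type, 8.13, 8.46 and 8.35 in ob/ob vehicle and 9.16, 8.77 and 8.47 in VE. Every ob/ob vehicle array was below every array of the other groups (-0.82, SE 0.238, limma adjusted p 0.093 against wild type, and 0.49, limma adjusted p 0.403 for VE against it). Slc25a40 was 8.95, 8.40 and 8.46 in wild type, 8.75, 9.10 and 8.51 in ob/ob vehicle and 8.98, 8.20 and 8.93 in VE, with all groups overlapping. The log2 ratio of Slc25a39 to Slc25a40 changed by -1 in ob/ob (SE 0.26, exact permutation p 0.1, 0.375 adjusted). The mitoferrins Slc25a28 and Slc25a37, which import iron, overlapped between ob/ob vehicle and wild type. Slc25a28 was 9.36, 9.30 and 9.24 in wild type, 9.56, 9.58 and 9.16 in ob/ob vehicle and 9.39, 8.53 and 8.74 in VE (-0.55 against ob/ob vehicle, limma adjusted p 0.344, and -0.37 without VE array 2). Slc25a37, the form of red cell precursors, was 5.49, 5.32 and 5.57, then 5.86, 5.46 and 5.49, then 5.57, 5.28 and 5.47 in the same order of groups. Its groups overlapped throughout. The ratio of the mitoferrins changed by -0.01 in ob/ob (exact permutation p 1).

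Of the carriers of nucleotides and cofactors, 8 were measured and 0 were called in any comparison. Slc25a51 brings NAD into mitochondria. It was 12.65, 12.44 and 12.33 in wild type, 11.60, 11.96 and 11.76 in ob/ob vehicle and 12.19, 11.52 and 11.32 in VE. All 6 ob/ob arrays lay below wild type, at -0.70 for vehicle (SE 0.242, limma adjusted p 0.141) and -0.80 for VE (SE 0.242, limma adjusted p 0.219). Slc25a17, the peroxisomal carrier of coenzyme A and related nucleotides, was 10.35, 10.30 and 10.11 in wild type, 9.83, 9.80 and 9.77 in ob/ob vehicle and 10.71, 10.02 and 10.37 in VE. Its ob/ob vehicle arrays were again the lowest 3 of the 9 (0.57 for VE against them, SE 0.212, limma adjusted p 0.26).

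Slc25a16 and Slc25a42 are linked to coenzyme A. Slc25a16 was 10.81, 10.77 and 10.91 in wild type, 10.54, 10.52 and 10.43 in ob/ob vehicle and 10.64, 9.71 and 10.45 in VE, and Slc25a42 was 7.83, 8.27 and 8.19, then 7.41, 7.90 and 7.50, then 8.01, 6.07 and 7.13. VE array 2 held the lowest value of both genes. Against wild type the VE means differed by -0.56 and -1.03 (limma adjusted p 0.369 and 0.30), and without VE array 2 by -0.285 and -0.53 (limma adjusted p 0.671 and 0.513). The pyrimidine nucleotide carriers Slc25a33 and Slc25a36 differed by -0.31 and 0.21 in ob/ob, neither called.

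The ADP/ATP exchangers Slc25a4 and Slc25a5 bring ADP to ATP synthase and are the most abundant inner membrane carriers of most cells. Slc25a4 was 17.00, 16.38 and 16.82 in wild type, 16.36, 15.88 and 16.75 in ob/ob vehicle and 17.01, 14.16 and 16.51 in VE. Its groups overlapped, and VE array 2 was far below every other array. Slc25a5 was 14.44, 14.35 and 14.18 in wild type, 13.48, 13.60 and 13.93 in ob/ob vehicle and 14.37, 12.67 and 13.60 in VE. The ob/ob vehicle arrays were below wild type (-0.65, SE 0.335, limma adjusted p 0.294), and VE array 2 was again the lowest. The ratio of Slc25a4 to Slc25a5 changed by 0.25 in ob/ob (SE 0.27, exact permutation p 0.5). Slc25a31, a form of the testis, was a dim probe set at 4.39 to 4.79 in wild type and 5.21 to 5.55 in ob/ob vehicle (0.80, SE 0.28, limma adjusted p 0.143).

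Relatives of the uncoupling proteins that are expressed in brain, Slc25a14 and Slc25a27, and Slc25a30 included 0 called members. Slc25a27 was 10.95, 10.96 and 10.75 in wild type, 11.68, 11.37 and 11.15 in ob/ob vehicle and 11.33, 9.60 and 11.01 in VE. It was the only carrier above the median signal whose ob/ob vehicle arrays all lay above wild type (0.51, SE 0.356, limma adjusted p 0.438). The difference between VE and ob/ob vehicle was -0.75 (limma adjusted p 0.384) and -0.23 without VE array 2, the lowest of the 9 (limma adjusted p 0.595). Slc25a14 differed by -0.43 and Slc25a30 by 0.09 in ob/ob.

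The 6 carriers of carnitine, ornithine and other amino acids differed by -0.38 to 0.13 in ob/ob and by -0.15 to 0.33 in VE against ob/ob vehicle, with 0 called. They include Slc25a20, the carnitine-acylcarnitine carrier of fatty acid oxidation (-0.38 in ob/ob), and Slc25a44, a carrier of branched-chain amino acids (-0.22). The 9 carriers of other or unassigned role differed by -0.24 to 0.63 in ob/ob, with 0 called. Slc25a46, which shapes the outer membrane, was 14.41, 14.42 and 14.18 in wild type, 14.32, 13.96 and 14.01 in ob/ob vehicle and 14.41, 13.28 and 14.30 in VE. Its groups overlapped, with the lowest value on VE array 2. Slc25a47, a carrier of liver, was a dim probe set at 5.57, 5.79 and 6.01, then 5.85, 6.00 and 6.20, then 6.28, 6.54 and 6.19. All VE values were above wild type by a margin that did not pass (0.55, SE 0.206, limma adjusted p 0.315).

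**Figure D3:**
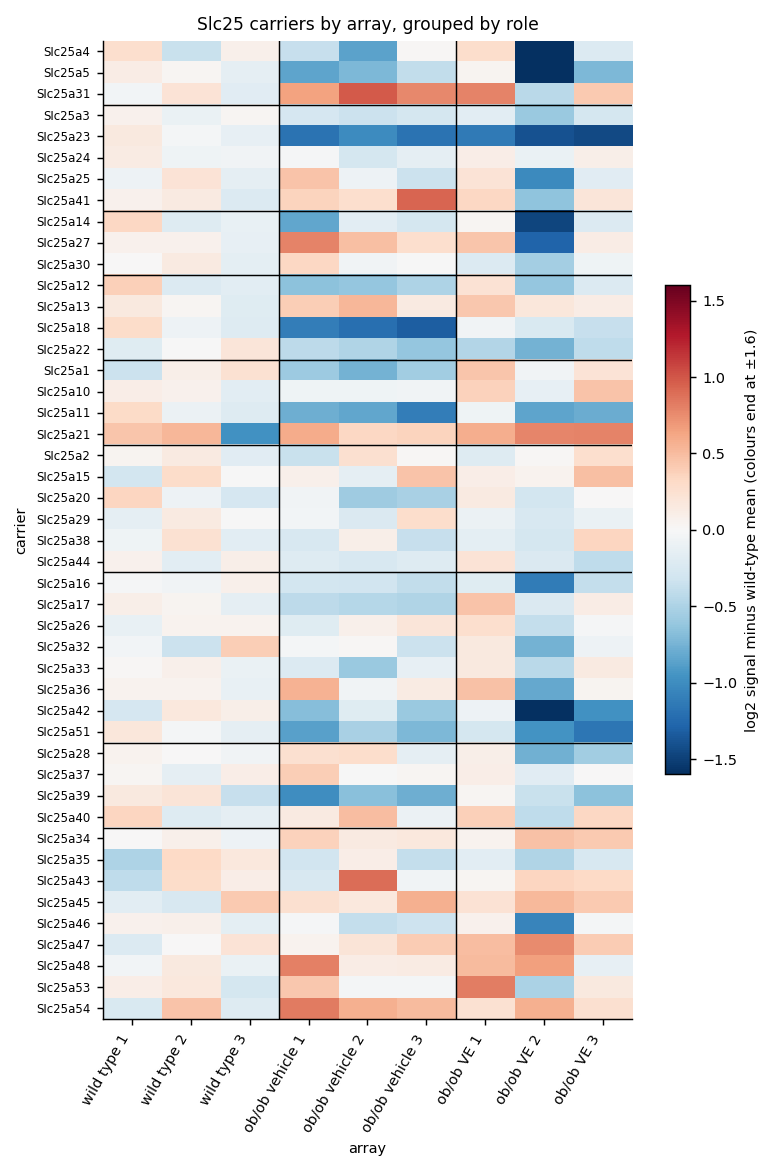
Log2 signal of each carrier (rows, in role groups separated by lines) on each array (columns) minus its wild-type mean, with colours ending at a difference of 1.6 either way. Slc25a18 and Slc25a23 are low on the 3 ob/ob vehicle arrays, Slc25a23 stays low on the VE arrays, and VE array 2 is the lowest VE array for 32 of the 46 carriers.

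Across the family, 14 carriers had ob/ob vehicle arrays all below wild type (17.5% of all probe sets did) and 5 had them all above (15.8%). The 14 were Slc25a1, Slc25a3, Slc25a5, Slc25a11, Slc25a12, Slc25a16, Slc25a17, Slc25a18, Slc25a22, Slc25a23, Slc25a33, Slc25a39, Slc25a44 and Slc25a51, and 13 of them were at or above the median signal. The 5 were Slc25a27, Slc25a31, Slc25a34, Slc25a41 and Slc25a54, and 4 of them were dim. The background also differed by brightness. Among the 11103 probe sets at or above the median signal, 3292 lay below wild type without overlap and 1242 above. Among the 11103 dimmer ones the counts were 596 and 2263. Of the 25 brighter carriers, 13 lay below and 1 above. Between VE and ob/ob vehicle, 4 carriers were higher without overlap (Slc25a1, Slc25a17, Slc25a18 and Slc25a39; 4.62% of all probe sets) and 1 was lower (Slc25a30; 11.9%). Those 4 are all among the 14, but the 2 comparisons share the ob/ob vehicle arrays, so low values there enter both. Between VE and wild type, 5 carriers were lower without overlap (Slc25a3, Slc25a16, Slc25a22, Slc25a23 and Slc25a51; 11.5%) and 2 were higher (Slc25a21 and Slc25a47; 5.34%).

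The differences followed the brightness of the probe set. The 25 brighter carriers had a median difference of -0.40 in ob/ob against wild type, with 19 of 25 below 0, and the 21 dimmer ones had a median of 0.14. Over all probe sets the same split gave -0.21 and 0.17, with 69% of the brighter ones below 0. The split by brightness was thus not particular to the carriers, but the median of the brighter carriers lay further below 0. The cause of that gap was not tested. After quantile normalization the median of the brighter carriers was -0.24 against -0.03 for all brighter probe sets, and after cyclic loess it was -0.22 against -0.02. The family median over all 46 carriers was -0.09 in ob/ob against wild type (0.02 over all probe sets), -0.06 in VE against ob/ob vehicle (-0.07) and -0.075 in VE against wild type (-0.07). In VE against ob/ob vehicle the median of the brighter carriers was -0.10 with all arrays and 0.13 without VE array 2, while that of all brighter probe sets was -0.05 and 0.13. In VE against wild type it was -0.33 with all arrays (-0.23 over all brighter probe sets) and -0.09 without VE array 2 (-0.04). Centring each array on its own median moved the median of all probe sets in VE against ob/ob vehicle from -0.07 to 0.06, and that of the family to 0.06. What part this dependence on brightness has in the fall of Slc25a23, whose mean signal is far above the median, was not tested beyond these rescalings.

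**Figure D4:**
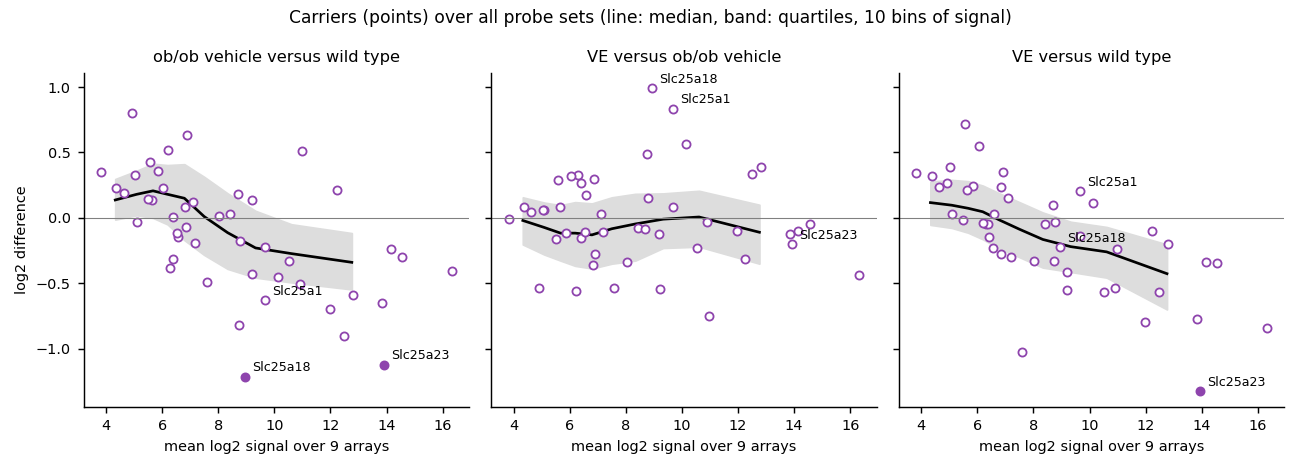
Log2 difference against mean log2 signal over the 9 arrays for the 46 carriers (points), over the median (line) and quartiles (band) of all probe sets in 10 bins of signal. In ob/ob against wild type the line runs from 0.14 in the dimmest bin to -0.34 in the brightest, and Slc25a18 (-1.21) and Slc25a23 (-1.12) lie below the band.

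Genes that work beside the carriers were counted from lists by symbol, chosen with earlier results of these data known. Of 8 measured enzymes of the malate-aspartate shuttle and citrate supply, 1 fell in ob/ob, where 0.73% of all probe sets were called lower. Mdh2, the mitochondrial malate dehydrogenase, was 12.89, 12.31 and 12.49 in wild type, 11.46, 11.50 and 11.38 in ob/ob vehicle and 11.70, 11.64 and 11.36 in VE. Both ob/ob groups lay below wild type, at -1.12 for vehicle (SE 0.209, limma adjusted p 0.0366) and -0.997 for VE (limma adjusted p 0.0883). Got1, the cytosolic aspartate aminotransferase of the same shuttle, differed by -1.19 in ob/ob (SE 0.298, limma adjusted p 0.066). Every ob/ob array of either group lay below the wild-type arrays of Got1, and the median of the 8 enzymes was -0.32.

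All 16 measured genes of ATP synthase had lower means in ob/ob than in wild type, with a median of -0.63, but 0 of them were called by limma (9 lower at an unadjusted p under 0.05, as were 10.2% of all probe sets and 17.6% of those at or above the median signal). The smallest adjusted p among them was that of Atp5g2, a subunit of the membrane ring (-0.84, limma adjusted p 0.066). In VE against wild type all 16 were again below 0 (median -0.62, 0 called), and against ob/ob vehicle their median was 0.11. Without VE array 2 these medians were -0.25 and 0.40. Beside them, the brightest of 10 bins of all probe sets had a median of -0.34 in ob/ob. Of the 15 other measured mitochondrial membrane transporters (pyruvate carriers, porins, sideroflexins and the calcium uniporter), 0 were called and the median was -0.31 in ob/ob. The 14 genes of protein import (0 called, median -0.31), the 5 carnitine enzymes (0 called, -0.20) and the 6 regulators such as Ppargc1a (0 called, -0.41) gave values of the same order. At an unadjusted limma p under 0.05 there were 0 of the transporters, 4 import genes, 1 carnitine enzyme and 2 regulators, each lower in ob/ob. Beside them stand the same 10.2% of all probe sets and 17.6% of those at or above the median signal. Family members under other symbols, 4 measured of 5 listed, had 0 called, and Mtch1 of the outer membrane differed by -0.58 in ob/ob (limma adjusted p 0.198) and by 0.57 in VE against ob/ob vehicle (limma adjusted p 0.313).

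Several markers of brain cell types were also lower in ob/ob, and in bulk tissue fewer cells of a type and less RNA per cell cannot be told apart. Brighter probe sets as a whole fell too. The 11103 at or above the median signal had a median of -0.21 in ob/ob, with 147 called lower. In the brightest of 10 bins the median was -0.34. The part of this array-wide shift in the marker values was not tested. Of the 8 astrocyte markers, 3 fell in ob/ob against wild type (Sox9 by 1.53, Gfap by 1.40 and Aqp4 by 0.91, limma adjusted p 0.0117, 0.0394 and 0.0467), and the median of the 8 was -0.61. Their log2 summed level was 18.81 to 19.01 in wild type, 18.08 to 18.81 in ob/ob vehicle and 16.30 to 18.85 in VE. Against the wild-type mean, the mean of the 8 was -0.57, -0.96 and -0.82 on the ob/ob vehicle arrays and -0.47, -1.36 and -0.75 on the VE arrays. Less that mean, Slc25a18 was -0.54 to -0.25 in ob/ob vehicle, 0.38 to 1.12 in VE and -0.13 to 0.24 in wild type, and the 3 ranges did not overlap. The value of 1.12 was that of VE array 2, on which the astrocyte mean was -1.36. None of the 8 markers passed between VE and ob/ob vehicle (median 0.11) or between VE and wild type (median -1.04), and without VE array 2 these medians were 0.31 and -0.36. The part of astrocyte number in the fall of Slc25a18 was not tested.

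Of the 9 neuron markers, 0 were called by limma. At an unadjusted limma p under 0.05, 3 were lower in ob/ob, as were 17.6% of all probe sets at or above the median signal. The median of the 9 was -0.47 in ob/ob and -0.56 in VE against wild type (-0.34 without VE array 2). Their log2 summed level was 20.16 to 20.48 in wild type, 19.19 to 20.14 in ob/ob vehicle and 17.12 to 20.19 in VE. Slc25a23, which is abundant in brain, stood below the mean of these markers by 0.23 to 0.82 on the ob/ob vehicle arrays (differences of -0.82 to -0.23) and at -1.11 to 0.24 in VE. The value of 0.24 was that of VE array 2, on which the neuron mean was -1.64. Oligodendrocyte markers had 2 of 7 called lower in ob/ob (Fa2h and Cldn11, median -1.18), microglia 1 of 7 (C1qb, -0.61), choroid plexus 2 of 7 (Folr1 and Kl, -0.85) and endothelium 0 of 6 (-0.34). Beside these counts, 0.73% of all probe sets were called lower, and 147 of the 11103 at or above the median signal. The part of these cell types in the carriers' values was not tested.

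**Figure D5:**
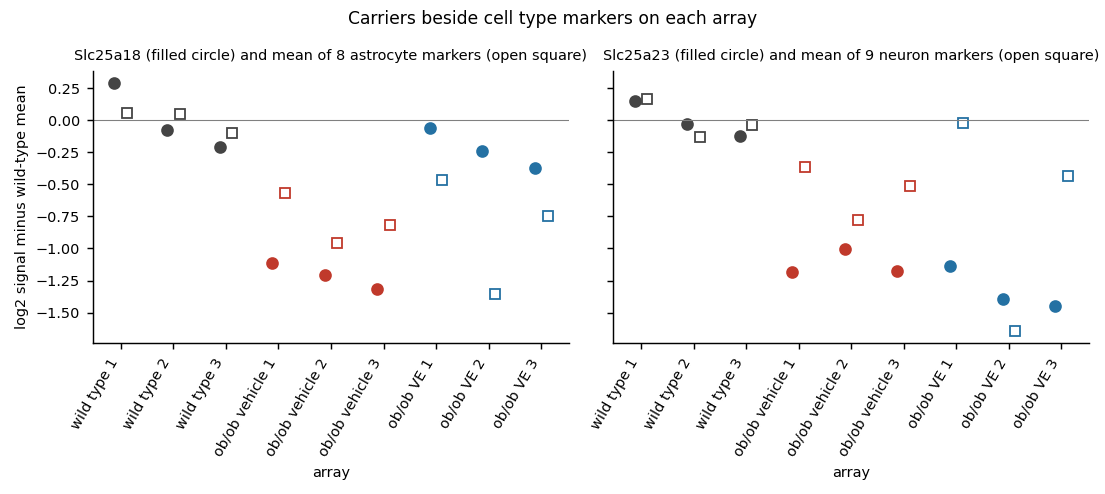
Log2 signal minus the wild-type mean on each array for Slc25a18 beside the mean of 8 astrocyte markers and for Slc25a23 beside the mean of 9 neuron markers (filled circles for carriers, open squares for marker means). On the VE arrays Slc25a18 lies above the astrocyte mean by 0.38 to 1.12, and on the ob/ob vehicle arrays both carriers lie below their marker mean.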

How the data were processed

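The samples were 9 brain RNA samples on Clariom S mouse arrays. The deposited values were log2 signals. Per the design text, the authors normalized them by SST-RMA (TAC software, version 4.0.2), which summarizes the probes of a set. Signals of the 22206 probe sets were used without further normalization, and 19572 carried 1 gene symbol in the platform annotation. Group means over all 9 arrays were fitted with limma 3.58.1 in R 4.3.3 (6 residual and 7.03 prior degrees of freedom), with Benjamini-Hochberg adjustment over all probe sets. The fit was tested on simulated data with independent normal noise, which held no outlying array and no trend with brightness. That test therefore does not speak to those features of the real arrays. The number of arrays limits the precision. Levels were set against the median signal, ranked or summed over markers only as a description, since probe sets differ in response. Membership follows the gene symbol, but the family and the gene lists were chosen with earlier results of these data known. Values on every array are given for called members, the 6 with the smallest p in each comparison, the 4 with the highest signal and 5 paralog pairs. Listed pathway genes are named when called or among the 3 smallest p of a list. Alternatives covered scaling, a signal filter, moderation, samples fitted, the replicate block, the symbol filter, the authors' rule (unadjusted p under 0.05, fold over 1.1) and single arrays left out.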

Additional observations from a re-analysis of the deposited data

How the results depend on the processing

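The number of carriers called in ob/ob against wild type was 2. It was 1 after quantile normalization, 1 after cyclic loess and 1 with trend and robust moderation, 7 in a fit of the 2 compared groups alone (11.8% of all probe sets called) and 10 by the authors' rule (2 higher, 8 lower; 20.1%). The 3 settings that gave 1 called 2.84%, 3.64% and 1.59% of all probe sets. Leaving out each array in turn gave 0 to 7: 0 without any 1 wild-type or ob/ob vehicle array, 2 without VE array 1 or 3, and 7 without VE array 2 (13.4%). In VE against ob/ob vehicle the count was 0 with all arrays. It was 1 after centring arrays, 1 with the signal filter and 1 with trend and robust moderation. Quantile normalization gave 2, cyclic loess 2 and the authors' rule 4. Of all probe sets, 0.32% to 1.69% were called under these 5 settings other than the rule, and 13.3% by the rule. Leaving out each array gave 0 to 2, with 2 without VE array 2 (1.81% of all probe sets). In VE against wild type the count was 1, and 9 by the authors' rule (12.2%). It was 0 under quantile, cyclic loess, trend and robust moderation and the fit of 2 groups (at most 0.045% of all probe sets). Leaving out each array gave 0 to 2, with 2 without VE array 1 (0.712% of all probe sets). The family median was -0.40 in ob/ob and -0.33 in VE against wild type among probe sets at or above the median signal. Leaving out each array gave medians of -0.17 to -0.03, -0.18 to 0.08 and -0.21 to 0.07 in the 3 comparisons. Of 21 named carriers, 13, 19 and 19 kept their side of the threshold under every alternative that kept the adjusted p rule (the authors' rule is counted apart, above), and 0 calls reversed. The sign of the difference turned in at least 1 alternative for 4, 10 and 9 of the 21. Quantile scaling without VE array 2, chosen after the data were seen, gave counts of 3, 1 and 0 in the 3 comparisons. Beside them, 8.87%, 1.88% and 0.0856% of all probe sets were called. The family median in VE against wild type was 0.12 in this setting. Taking the mean over several probe sets could not be run, as each carrier has 1. The cause of these changes was not tested.

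With the replicate number as a block the counts were 2, 1 and 0, beside 1.13%, 0.648% and 0.00901% of all probe sets. Slc25a18 gained the call in VE against ob/ob vehicle (limma adjusted p 0.0473) and Slc25a23 lost it in VE against wild type (0.0643). With group means removed, same-numbered arrays of different groups correlated at -0.03 to 0.33, and 4 of 9 pairs exceeded 0.1. Arrays of different number correlated at -0.29 to 0.11. Whether the numbers pair the samples is not stated in the labels and was not tested.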
